A study of Rattus norvegicus with 6 samples.

Results

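The miR-130/miR-301 family is described here by its 4 mature miRNA assays, miR-130a, miR-130b, miR-301a and miR-301b, out of 584 miRNA assays on the cards. They were taken by name alone, and passenger strand assays (marked *) were left out. Left ventricular tissue came from 3 OLETF rats, labelled as diabetic, and from 3 LETO rats, labelled as healthy controls. OLETF is an inbred rat strain that becomes obese and develops type 2 diabetes, and LETO is the related strain that does not. All 6 animals were anesthetized and ventilated before the heart was removed and frozen, and their ages are not given in the sources used here. Every diabetic rat was OLETF and every other rat LETO, so diabetes, obesity and strain cannot be told apart. As whole ventricle was measured, fewer cells of a type and less miRNA per cell cannot be told apart either.

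A miRNA guides a silencing complex to messenger RNAs, mostly through its seed, bases 2 to 8, and lowers their translation and stability. Members of the miR-130/miR-301 family carry the same seed and are known, mainly from human and mouse cells, to repress Pparg, a nuclear receptor that drives fat cell formation and lipid storage. In pulmonary vessels the family is known for promoting growth of the vessel wall. The study of these strains followed miR-301b and its effect on AMP deaminase, an enzyme of adenine nucleotide breakdown, in the diabetic heart.

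The rat sequences from RefSeq (build GRCr8) are shown because the shared seed defines the family and the remaining bases separate its members. Capitals mark the seed. The table held mature 3p sequences for 3 members. For miR-301a-3p the hairpin is given instead, with capitals at its single run of the same 7 letters (positions 62 to 68 of 100, counted from the 5′ end).
miR-130a-3p: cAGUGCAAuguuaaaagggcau
miR-130b-3p: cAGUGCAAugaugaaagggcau
miR-301b-3p: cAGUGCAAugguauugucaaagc
Mir301a hairpin: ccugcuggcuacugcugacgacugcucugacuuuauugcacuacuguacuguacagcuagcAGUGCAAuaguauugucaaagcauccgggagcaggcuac

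miR-130a-3p lies at chr3:90229240-90229261 on the minus strand. miR-301b-3p lies at chr11:97384077-97384099 and miR-130b-3p at chr11:97384430-97384451, both on the plus strand. Their hairpins are neighbours, 269 bases apart, and both overlap the gene entry 2610318N02Rikl. The Mir301a hairpin lies at chr10:72422599-72422698 on the plus strand, where the Ska2 and Prr11 entries overlap it. Among 693 mature rat miRNAs in the table, the 3 listed above, 0.433%, had this seed, and 7 of 419 hairpins (1.67%) held the letters AGUGCAA anywhere. miR-130a-3p and miR-130b-3p were identical at 20 of 22 positions and differed by U11A and A13G (base of miR-130a, position from the 5′ end, base of miR-130b). Each shared its first 10 bases with miR-301b-3p, but 13 (miR-130a-3p) and 12 (miR-130b-3p) of 22 positions in all. The last 9 bases of miR-130a-3p and miR-130b-3p were the same, and the last 13 bases of miR-301b-3p also occurred in the Mir301a hairpin. The stem-loop primers used for reverse transcription bind at this end, and the labels do not say how far each assay reads its near copy.

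The cards gave a threshold cycle (Ct) per well, the PCR cycle at which the product was detected. The lower the Ct, the more RNA was present, and a step of 1 cycle equals 1 log2 unit where the product doubles per cycle. Each member had 1 well per sample, all on the first of 2 blocks of wells, called card A here. An assay counted as measured at a Ct under 35. The OLETF samples measured 197, 200 and 228 assays and the LETO samples 207, 202 and 292, and LETO replicate 3 stood apart with the highest count and the lowest Ct values. The median Ct of the 122 card A assays measured in all samples was 28.9, 29.0 and 28.0 in OLETF replicates 1, 2 and 3, against 30.02, 29.5 and 26.5 in LETO, while the U6 Ct was 17.6, 17.9 and 18.2 in OLETF, against 19.2, 17.5 and 17.9 in LETO. U6 is a spliceosomal RNA, and its Ct in LETO replicate 3 lay inside the range of the other samples. Markers were set beside the heart label. Of the cardiomyocyte assays 7 of 7 (among them miR-133a, miR-499 and a mouse and a rat assay of miR-1) were measured in every sample. The liver miRNA miR-122 and the islet miRNA miR-375 were undetermined in all 6. Of the brain miRNAs, miR-9 was measured in all 6, miR-128a in 3 OLETF and 2 LETO samples, and miR-124 in 0. Of the red cell miRNAs miR-451 was measured in 0 OLETF samples and 1 LETO sample, but miR-486 in all 6. In 189 pairs of measured wells, from assays spotted in 2 wells, well noise had an SD of 0.486 cycles, or 0.688 cycles for a difference between 2 wells. The median gap of a pair was 0.270 cycles. All these pairs were on the second block, card B, so the value is only a rough guide to the members on card A.

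miR-130a had the lowest Ct of the family in all 6 samples and miR-130b the highest. miR-130a, known from human endothelial cells as a pro-angiogenic miRNA, had a Ct of 29.1, 29.3 and 28.9 in OLETF replicates 1, 2 and 3, against 30.3, 29.8 and 26.0 in LETO. LETO replicate 3 was the lowest Ct of the 6 and the other LETO samples the highest, so the LETO range enclosed the OLETF range. miR-301a had a Ct of 31.6, 31.8 and 29.9 in OLETF, against 32.2, 31.4 and 27.4 in LETO. miR-301b had a Ct of 31.1, 32.1 and 29.5 in OLETF, against 31.0, 30.5 and 27.7 in LETO. For miR-301a and miR-301b the group ranges overlapped, with replicate 3 at the lowest Ct of its group. miR-130b, known from human fat cell precursors as a repressor of PPARG, had a Ct of 35.1, 35.7 and 33.0 in OLETF, against 33.9, 34.4 and 30.9 in LETO. It amplified in all 6 wells, but 2 OLETF wells lay beyond the limit of 35. It thus counted as measured in 1 OLETF sample and in all 3 LETO samples, and the nearest value inside the limit was the LETO Ct of 34.4. Amplification efficiencies of the assays are not given, so the order of Ct between members is only approximately an order of abundance.

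**Figure D1:**
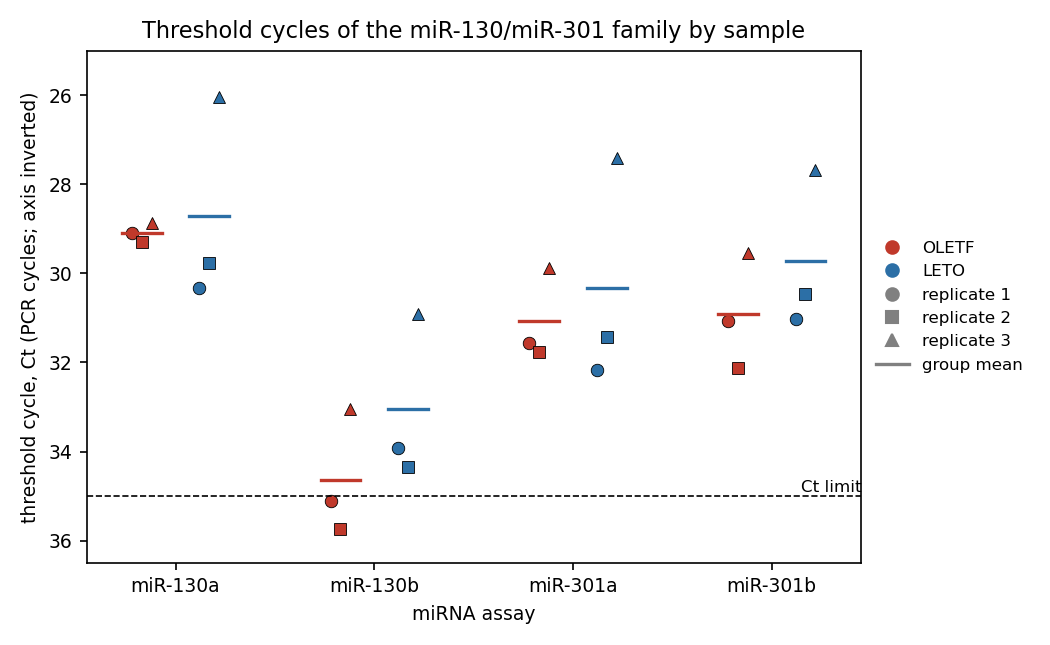
Ct (PCR cycles, axis inverted so that more RNA is higher) of the 4 family members in each OLETF and LETO sample, with replicates by symbol and group means as lines, wells beyond the dashed limit of 35 included. Replicate 3 had the lowest Ct of its group for every member, and the 2 miR-130b wells beyond the limit were OLETF replicates 1 and 2.

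The order of the family within a sample does not depend on any reference, since all 4 wells stand on the same card. miR-301b and miR-301a were the closest neighbours. miR-301b minus miR-301a was 0.50, -0.35 and 0.35 log2 units in OLETF replicates 1, 2 and 3, against 1.15, 0.95 and -0.27 in LETO. Either member was thus ahead in some samples of each group. The SD over all 6 samples, 0.617, was below the 0.688 cycles found for a difference between 2 wells of card B. miR-301b minus miR-130a was -1.97, -2.82 and -0.67 in OLETF, against -0.69, -0.70 and -1.65 in LETO, so miR-301b was furthest behind miR-130a in OLETF replicates 1 and 2. miR-301a minus miR-130a was -2.47, -2.47 and -1.02 in OLETF, against -1.85, -1.65 and -1.38 in LETO. The group differences, OLETF minus LETO, were -0.45 for miR-301b minus miR-301a, -0.81 for miR-301b minus miR-130a and -0.36 for miR-301a minus miR-130a. With 1 sample left out the last 2 ran from -1.38 to -0.31 and from -0.85 to -0.12, furthest from 0 without OLETF replicate 3. None was beyond the spread of the samples (two-sided exact permutation p = 0.4, 0.4 and 0.6, n = 3 each, where 3 against 3 samples allow no p below 0.1).

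miR-301b and miR-130b, from neighbouring genes, had the lowest SD of the 6 pairs. However, 3 of the pairs had SDs under the 0.688 cycles of well noise on card B and cannot be ranked against each other. With a Ct limit of 38, which takes in all miR-130b wells, miR-301b minus miR-130b was 4.05, 3.62 and 3.50 log2 units in OLETF, against 2.89, 3.89 and 3.22 in LETO. All 6 values lay within 1.16 log2 units, the SD was 0.426, and the group means of 3.72 ± 0.29 in OLETF and 3.33 ± 0.51 in LETO (SD, n = 3 each) differed by 0.39 (exact permutation p = 0.3). Of the 10153 pairs among 143 card A assays with a Ct under 38 in all samples, 9.73% had a smaller SD, and the median SD was 0.909. The SDs of the other family pairs ran from 0.584 for miR-301a and miR-130a to 1.09 for miR-130a and miR-130b. These pairs share wells and are given without a test. miR-130a minus miR-130b was 6.02, 6.45 and 4.17 in OLETF, against 3.59, 4.58 and 4.87 in LETO. The group difference was 1.20 (exact permutation p = 0.3). It was 2.15 over replicates 1 and 2 and -0.70 between the samples of replicate 3. miR-301a minus miR-130b differed by 0.84 (exact permutation p = 0.2). In all, 6 pairs were compared, and an exact permutation p could not go below 0.1 for any. limma fits with the second member of a pair as the reference gave the 6 pairs unadjusted p of 0.149 to 0.665 and adjusted p of 0.308 to 0.985 (245 assays each).

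**Figure D2:**
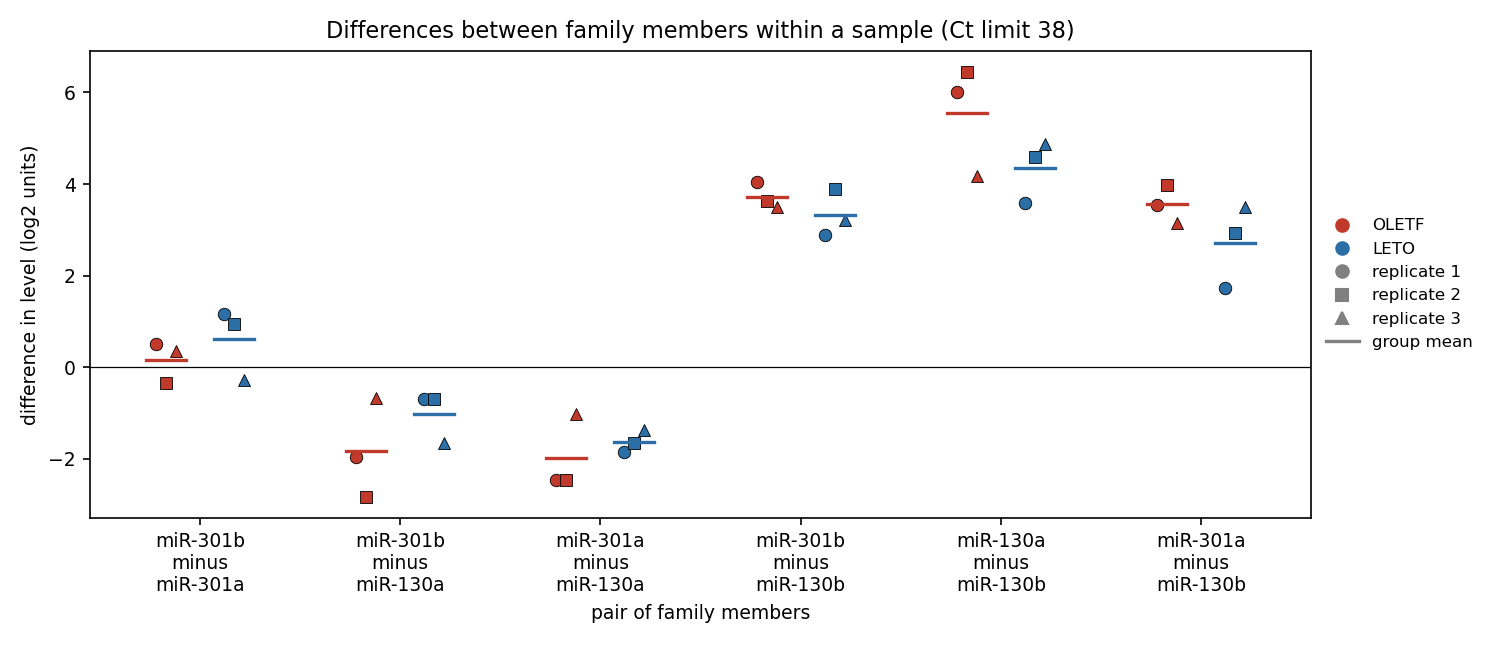
Difference in level (log2 units) between 2 members in the same sample, for the 6 pairs of members and a Ct limit of 38, OLETF left and LETO right of each position, replicates by symbol and group means as lines. miR-301b minus miR-130b keeps within 1.16 log2 units over all samples, while miR-130a minus miR-130b spreads from 3.59 to 6.45.

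Relative to U6, no miRNA of the whole table differed between OLETF and LETO at an adjusted p under 0.05 (limma, 0% of 193 assays tested). Before adjustment, 2 assays had a p under 0.05, or 1 by an ordinary linear model. Of the family, 3 of 4 members were tested and 0 passed. Levels are minus the Ct difference to U6, in log2 units. miR-301b lay at -13.42, -14.19 and -11.31 in OLETF, against -11.82, -13.01 and -9.79 in LETO. The groups overlapped, and the difference was -1.44 (SE 1.38, limma adjusted p = 0.997). miR-301a lay at -13.92, -13.84 and -11.67 in OLETF, against -12.97, -13.96 and -9.52 in LETO, a difference of -0.99 (SE 1.38, limma adjusted p = 0.997). miR-130a lay at -11.45, -11.36 and -10.64 in OLETF, against -11.12, -12.31 and -8.14 in LETO, a difference of -0.63 (SE 1.38, limma adjusted p = 0.997). The median of the 3 was -0.99, beside -0.60 over all assays tested, of which 80.8% lay below 0. LETO replicate 3 decided much of these values: without it the difference was -0.56 for miR-301b, 0.32 for miR-301a and 0.56 for miR-130a. The spread was pooled over all assays by the fit, so these 3 members, measured in all 6 samples, got the same SE.

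miR-130b had too few wells under 35 to be tested there, and it is given with the Ct limit of 38. Its level relative to U6 was -17.47, -17.81 and -14.82 in OLETF, against -14.71, -16.89 and -13.01 in LETO. OLETF replicate 3 lay between the LETO samples, and the difference was -1.83 (SE 1.45, limma adjusted p = 0.992, with 0% of 246 assays called and 7 at an unadjusted p under 0.05). In that fit miR-130b ranked 27 and miR-301b 46 from the lowest of 246 differences, while miR-301a ranked 88 and miR-130a 134. In the authors' deposited table of ratios, OLETF over LETO, miR-130b had the lowest ratio of the family, 0.282. In the same deposited table miR-301b had 0.370, miR-301a 0.503 and miR-130a 0.647. These came from the same wells and are no independent measurement.

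The median of card A was used as a reference taken from the miRNAs themselves. miR-301b then lay at -2.13, -3.12 and -1.58 log2 units from the card A median in OLETF, against -0.998, -0.951 and -1.18 in LETO. All OLETF samples were below all LETO samples, and the 3 LETO values lay between -1.18 and -0.95. The difference was -1.23 (SE 0.456, limma adjusted p = 0.614, exact permutation p = 0.1, the smallest possible). miR-130b, with the limit of 38, lay at -6.18, -6.74 and -5.08 in OLETF, against -3.89, -4.84 and -4.41 in LETO. Again the groups did not overlap, with a difference of -1.62 (SE 0.543, limma adjusted p = 0.546, exact permutation p = 0.1). For miR-301b, miR-130b and also miR-301a, from another chromosome, OLETF replicate 2 was the lowest sample and OLETF replicate 3 the highest OLETF sample. miR-19a, outside the family, had the same order in OLETF (-2.44, -2.95 and -0.76). The order is thus not particular to the neighbouring genes of miR-301b and miR-130b.

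miR-301a and miR-130a had smaller differences with this reference, and their groups overlapped. miR-301a lay at -2.63, -2.77 and -1.93 in OLETF, against -2.15, -1.90 and -0.91 in LETO. OLETF replicate 3 fell among the LETO samples, and the difference was -0.79 (SE 0.456, limma adjusted p = 0.632). miR-130a lay at -0.16, -0.30 and -0.91 in OLETF, against -0.30, -0.25 and 0.47 in LETO, a difference of -0.42 (SE 0.404, limma adjusted p = 0.680). Replicates 1 and 2 of both groups lay between -0.30 and -0.16 for miR-130a, with OLETF replicate 3 below them and LETO replicate 3 above. With this reference 0% of 193 assays were called at the limit of 35 and 0% of 246 at 38 (limma; 12 and 19 at an unadjusted p under 0.05). Groups that did not overlap, with OLETF lower, were found for miR-301b, 1 of 3 family members measured in all samples, beside 9.26% of 162 assays. With the whole-array median it was again miR-301b, beside 3.70% of 162 assays. With the mean of 3 other small RNAs it was no member, beside 0.617% of 162 assays, and miR-301b was lower in OLETF in 5 of 9 pairs of samples (difference -0.58, exact permutation p = 0.7). At the limit of 38 they were found for miR-301b and miR-130b, 2 of 4 members, beside 12.1% of 199 assays. The median difference of the 4 members at that limit was -1.01, beside -0.35 over all 246 assays. With U6 as reference the groups overlapped for every member, beside 0% of 162 assays without overlap.

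**Figure D3:**
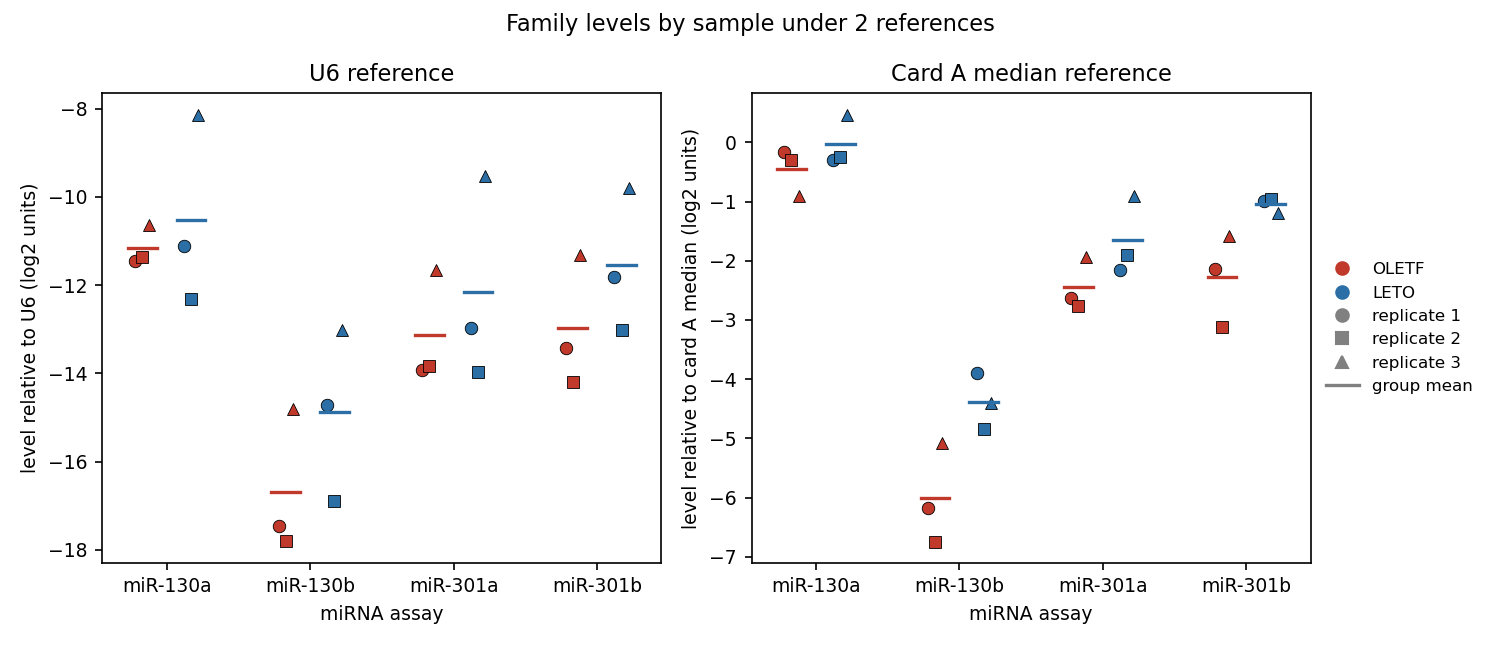
Level (log2 units) of each family member by sample relative to U6 on the left and to the card A median on the right, OLETF left and LETO right of each position, replicates by symbol, group means as lines, miR-130b wells beyond a Ct of 35 included. Relative to the card median, the 3 LETO values of miR-301b lie between -1.18 and -0.95 and the 3 OLETF values between -3.12 and -1.58.

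Ranks on the same card were compared too, and they are no independent support for the card median values. Counted from the lowest Ct among determined card A assays, miR-301b ranked 95, 109 and 92 in OLETF replicates 1, 2 and 3, against 86, 77 and 82 in LETO. miR-130b ranked 152, 156 and 137 in OLETF, against 132, 136 and 133 in LETO. miR-301a ranked 104, 102 and 100 in OLETF, against 101, 92 and 76 in LETO. miR-130a ranked 63, 65 and 75 in OLETF, against 69, 65 and 58 in LETO. The ranks of miR-301b and miR-130b did not overlap between the groups, as for 6.80% of 147 card A assays determined in all samples with OLETF lower, and those of miR-301a and miR-130a did. The number of measured card A assays differed between samples, from 144 to 202. As the percent of measured assays with a lower Ct, miR-301b lay at 62.7, 74.5 and 55.2 in OLETF, against 59.0, 52.4 and 40.1 in LETO, and the groups overlapped. The groups also overlapped for miR-130b, at 82.4 in OLETF replicate 3, against 91.0 and 93.1 in LETO replicates 1 and 2.

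The members were also compared by replicate number, because replicate 3 had the lowest Ct of each group. Relative to the card median, the difference over replicates 1 and 2 was -1.65 for miR-301b and -2.10 for miR-130b, and between the samples of replicate 3 it was -0.39 and -0.68. The last 2 values are smaller than the 0.688 cycles found for a difference of 2 wells of card B. miR-301a differed by -0.67 over replicates 1 and 2 and by -1.02 in replicate 3. miR-130a differed by 0.05 and -1.37. With 1 sample a group in replicate 3, whether these differences depend on the replicate was not tested. Replicate numbers are those of the sample titles. The sample names number the LETO rats differently, so which OLETF and LETO samples share a number depends on the label used.

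Each reference subtracts 1 value per sample from all members, so it moves them together and cannot change their order. Across 8 references, the OLETF minus LETO difference ran from -1.44 (U6) to -0.57 (snoRNA135) for miR-301b, from -0.99 (U6) to -0.12 (snoRNA135) for miR-301a and from -0.63 (U6) to 0.24 (snoRNA135) for miR-130a. For miR-130b at the limit of 38 it ran from -1.83 (U6) to -0.96 (snoRNA135). The small nucleolar RNA U87 gave -1.19 for miR-301b, and the mean of snoRNA135, U87 and Y1 gave -0.58. miR-301b, miR-301a and miR-130b lay below 0 under each of these references, and miR-130a was above 0 with snoRNA135 and with the 3 small RNAs. The reference also moved the median of all assays, which was -0.60 with U6, -0.31 with the card median and 0.37 with the 3 small RNAs. Relative to those 3 small RNAs, miR-301b ranked 8 from the lowest of 193 differences, against 7 with the card median and 21 with U6. Among card A assays measured in all samples a reference cannot change the order. These ranks could thus move only against the other card or assays not measured in all samples. No member passed an adjusted p of 0.05 under any of these references (limma). miR-301b was the only member to pass in any fit run, with array weights (limma adjusted p = 0.0425, beside 15.5% of 193 assays called). In that fit the median difference of all assays was -0.97, 89.1% lay below 0, and all 30 assays called were lower in OLETF.

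**Figure D4:**
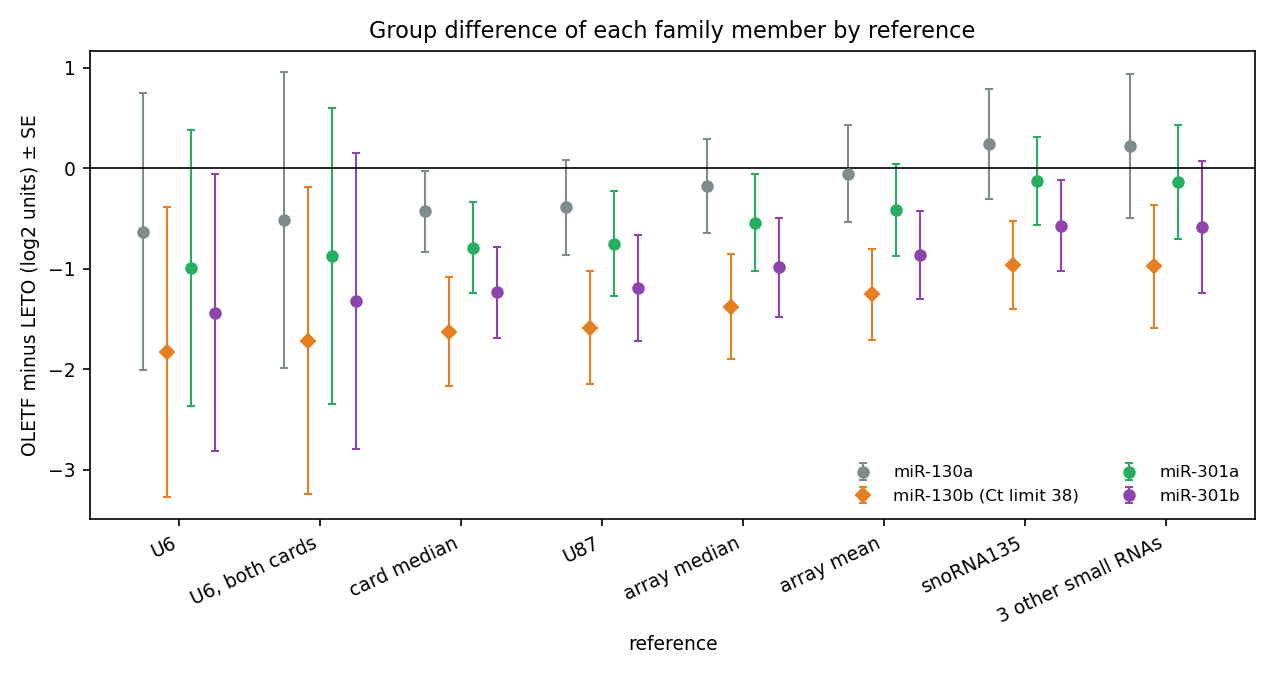
OLETF minus LETO difference (log2 units, points) with its limma SE (bars) for each member under 8 references, miR-130b fitted with a Ct limit of 38. The order of the members is the same throughout because a reference shifts all of them alike, and values for miR-301b run from -1.44 to -0.57.

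Among the 161 other assays measured in all samples, those whose levels followed a member most closely were found by Pearson r of the level relative to the card median over the 6 samples. These values share the 6 samples and the references and carry no test. For miR-301b they were miR-101a (r = 0.943), miR-31 (r = 0.940) and miR-30d (r = 0.937), all on card A. For miR-301a they were miR-19a (r = 0.975), miR-101b (r = 0.966) and miR-99a (r = 0.954). For miR-130a they were miR-29a* (r = 0.895), miR-22 (r = 0.872) and miR-30d* (r = 0.871), all on card B. No ranked family member was among them: miR-301a stood at place 32 for miR-301b (r = 0.687), and miR-130a at place 102 (r = 0.149). miR-130b, with OLETF wells beyond the limit of 35, was not ranked. How closely it followed miR-301b is therefore not given by these places. Over 6 samples such values are imprecise.

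Assays related to the family by sequence or target were set beside it. miR-721, listed as a mouse miRNA of the same seed, was determined in 3 of 12 wells, with a mean Ct under 35 in OLETF replicate 3 only. The passenger strand of the Mir130b hairpin, miR-130b*, was undetermined in all 12 wells, while the opposite arm, miR-130b, amplified in all 6 of its wells. Its sequence carries another seed, in capitals.
miR-130b-5p: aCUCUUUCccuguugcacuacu
Seeds shifted by 1 base share 6 letters with the family seed and are shown for comparison, GUGCAA in miR-19a and AGUGCA in miR-148a.
miR-19a-3p: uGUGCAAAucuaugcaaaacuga
miR-148a-3p: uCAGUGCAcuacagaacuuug

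The 5 assays with such seeds, miR-19a, miR-19b, miR-148a, miR-148b and miR-152, were all tested, miR-148b from 2 OLETF and 3 LETO samples, and 0 passed. Relative to U6, 5 of 5 lay lower in OLETF, with a median of -0.69, and relative to the card median 5 of 5 did, with a median of -0.49, beside -0.60 and -0.31 over all assays. With the 3 small RNAs as reference 2 of 5 did. miR-19a, of the miR-17-92 cluster, had a Ct of 31.4, 31.958 and 28.7 in OLETF, against 31.956, 30.7 and 26.0 in LETO, and differed by -1.16 relative to the card median (SE 0.746, limma adjusted p = 0.632). miR-27a and miR-27b, also known to repress Pparg in mouse and human fat cells, differed by -0.63 (SE 0.417) and -0.62 (SE 0.391) relative to the card median, and 0 of 2 passed. With the 3 small RNAs as reference neither lay lower, at 0.02 and 0.03.

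Markers of the cell types in the ventricle were set beside the family, relative to the card median. Of all 193 assays tested, 67.4% lay lower in OLETF (median -0.31). Of the cardiomyocyte assays 7 of 7 lay lower (median -0.34), of the smooth muscle assays 2 of 2 (median -0.47) and of the endothelial assays 1 of 2 (median -0.21). Of the leukocyte assays 1 of 4 tested lay lower (median 0.14), and 0 markers passed (limma). Of the red cell assays miR-486 lay higher (0.47), but miR-451, measured in 0 OLETF samples and 1 LETO sample, could not be tested. Of the brain assays 2 of 2 tested lay lower (median -0.85), 1 of them, miR-128a, from 2 LETO samples. With the 3 small RNAs as reference, 2 of 7 cardiomyocyte assays lay lower, and 0 of 2 smooth muscle, 0 of 2 endothelial and 0 of 4 leukocyte assays did, beside 24.9% of all assays. Their part in the values of the family was not tested.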

How the data were processed

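Per the labels and the design text, heart RNA was copied into cDNA with a pool of stem-loop primers and measured by real-time PCR on rodent TaqMan arrays, with U6 as endogenous control. The labels also name SYBR Green. Threshold settings are not given in the sources used here. The deposited Ct table holds 768 wells per sample in 2 equal blocks, each with its own U6 wells. The authors' deposited normalized values are delta Ct, a log2 quantity. Subtracting the block's average over 4 U6 wells from Ct, with undetermined wells at 40, gave them within 3.75e-06. The authors' deposited ratio (fold) is OLETF over LETO, and 380 of 380 card A ratios were obtained from delta Ct within 0.001 on the log2 scale.

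Determined wells of an assay were averaged. Assays with a Ct under 35 in at least 2 samples of each group were tested with limma 3.58.1 (two-sided, Benjamini-Hochberg over all assays) in R 4.3.3. The fit was tried first on simulated data, with changes larger than any seen for the family. Whether it finds smaller changes was not tested there. References other than U6 were card medians, the whole-array median and mean of U6-based levels, other small RNAs and quantile normalization. Single values were compared by exact permutation over samples. Nothing in the labels says that replicates came from separate litters or days, so p-values measure only the spread between these 6 samples. The named miRNAs were the 4 members, the 3 assays most like each by Pearson r, and lists with the same seed, shifted seeds, passenger strands, Pparg targeting and cell markers. Among these lists, miR-454, miR-144 and passenger strands other than miR-130b* were not analysed here. Members and lists were chosen with earlier results of these data known. Ct limits of 38 combined with other references, and card medians over replicates 1 and 2 or with a block for replicate 3, were added after seeing the data.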

Additional observations from a re-analysis of the deposited data

How the results depend on the processing

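miR-301b stayed below 0 in OLETF in 55 of 55 alternatives (-2.27 to -0.56). Its adjusted p passed 0.05 (limma) only with array weights, at -1.91 beside a median of -0.97 over all 193 assays. Many of the 55 repeat a value and are not separate checks. As miR-301b was under 35 in all 6 samples, higher Ct limits, other filters and blocks could not move its difference. The count of assays called, 0, became 30 with array weights, 1 with the replicate block and 1 with a block for replicate 3. It was 0 with any sample left out at the limit of 35, and 0 to 2 at the limit of 38, with 2 without LETO replicate 2. Leaving out 1 sample gave -2.27 to -0.56 for miR-301b, -1.90 to 0.32 for miR-301a and -1.52 to 0.56 for miR-130a with U6, above 0 for the last 2 without LETO replicate 3. With the card median these ranges were -1.58 to -0.81, -1.04 to -0.42 and -0.57 to -0.18. miR-130a also turned with the other small RNAs (0.22), snoRNA135 (0.24) and replicates 1 and 2 alone (0.31, or 0.050 with the card median); the cause was not tested. miR-130b, at 0.054 over the 1 OLETF and 3 LETO samples measured, gave -1.83 with a Ct limit of 38 or none, where all 6 entered, and -1.54 with unmeasured wells set to 35. With 1 sample left out it ran from -2.84 to -0.90 with U6 (-2.77 without OLETF replicate 3) and from -2.08 to -1.25 with the card median.

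For the pairs, miR-301b minus miR-301a turned to 0.085 with a Ct limit of 32, which left 2 samples a group, and lay between -0.89 and -0.17 in fits without 1 sample. miR-130a minus miR-130b, at -0.17 over the measured samples, was 1.20 with a Ct limit of 38, without limit and with the replicate block, and 0.75 to 1.89 with 1 sample left out (0.96 and 0.75 without OLETF replicates 1 and 2, 1.89 without OLETF replicate 3, 0.82, 1.32 and 1.46 without LETO replicates 1, 2 and 3). Members have 1 well each and share card A, so single wells and another card reference gave no further value. Same-numbered samples had deviations that correlated at -0.088, 0.23 and 0.62, and pairing was therefore not assumed. The replicate block changed no call for a member (miR-301b -1.44, adjusted p = 0.682). miR-130b lies near the end of the measurable range, and 1 well per sample limits all members.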
